A study of Mus musculus with 6 samples.

Results

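The genes described here are the nuclear-encoded subunits and assembly factors of the oxidative phosphorylation system, which were compared between 3 CTL and 3 TGF-β1 cultures of primary mouse renal tubule epithelial cells (RTECs). They were chosen by symbol, as protein-coding genes whose names begin with Nduf, Uqcr, Atp5 or Cox4 to Cox8, together with Sdha, Sdhb, Sdhc and Sdhd. The rule gave 93 of the 46517 genes counted and used no measured value. By complex these were 36 subunits of complex I, 8 assembly factors of complex I (Ndufaf1 to Ndufaf8), 4 subunits of complex II, 8 of complex III, 20 of complex IV and 17 of complex V. Ndufa4 and its relative Ndufa4l2 carry complex I names but were grouped with complex IV, where the Ndufa4 protein is found. Genes of the system with other symbols, such as Cyc1 of complex III, fall outside the rule.

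All cultures were grown from kidneys of wild-type FvB mice, aged 4 to 6 weeks by the labels, in medium with 10% serum and 20 ng/ml EGF, and all were held for 24 h without serum. The CTL cultures carry the label control and no further agent is named for them. The TGF-b1 cultures were then given 50 ng/ml TGF-β1 for 24 h. TGF-β1 is a cytokine that drives fibrosis in the kidney, and the comparison asks how tubule cells respond to it. Nothing in the sources says how many mice gave each culture, so the p-values measure the spread between these cultures, which may be technical. Poly(A) RNA was sequenced from 100 ng of RNA per culture, and counts on genes summed to 28313080 to 34183497 per library.

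Oxidative phosphorylation is carried out by 5 complexes of the inner mitochondrial membrane. Complex I takes electrons from NADH and complex II takes them from succinate, and both pass them through coenzyme Q to complex III. Cytochrome c carries them on to complex IV, which reduces oxygen, and complex V uses the resulting proton gradient to make ATP. Most of the subunits are encoded in the nucleus and imported, while a small core is encoded by mitochondrial DNA. Kidney tubules, the proximal segment above all, depend on this pathway to power reabsorption.

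The cultures expressed the general markers of renal epithelium, but several markers of the mature proximal tubule were scarce. The summed normalised CPM (the counts of a gene relative to its library size after TMM scaling) of 7 renal epithelial markers was 1060 to 2640 in CTL and 916 to 2190 in TGF-b1 cultures. The proximal tubule list summed to 83.9 to 102 in CTL and 46.7 to 57.3 in TGF-b1 cultures, most of it from the endocytic receptor gene Lrp2. Of its 10 genes, Slc34a1, Slc5a2, Slc22a6 and Miox were each at most 0.344 in every culture, and Hnf4a and Slc5a12 at most 1.18. Aqp1 had 7.8 to 15.8 in CTL and 0.981 to 1.89 in TGF-b1 cultures. Gatm (3.91 to 13.1) and Cubn (4.13 to 5.3) overlapped between the groups. Of the 6 genes tested, 2 were lower at an edgeR adjusted p-value below 0.05 (Lrp2 and Aqp1), where 6.69% of all genes were lower. The collecting duct list summed to 9.63 to 21.9 in CTL and 29.9 to 57.3 in TGF-b1 cultures, most of it from Hsd11b2. Replicate 2 stood apart in both groups. Its epithelial sums were the lowest of their group (1060 and 916), and its sums over 6 fibroblast markers were the highest (2120 and 2400, against 763 to 1030 in the other 4 cultures). Single markers differed. Epcam, Cdh1, Krt8 and Krt18 were lowest there in both groups. Cdh16 and Pax8 were so only in TGF-b1 cultures, Pax2 in neither group, and Pax8 was highest of CTL there (215.0). Pdgfrb, Col1a1, Col3a1 and Dcn were highest there in both groups, with most of the sum from Col1a1. Pdgfra was lowest there in both (0.881 and 0.654), and Lum was near 0 there. Sums of the endothelial and leukocyte lists stayed below 9 in every culture. Fewer cells of a type and less RNA per cell cannot be told apart in these bulk samples, and the part of cell makeup in the results below was not tested.

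To show what these genes share in sequence, promoter windows of RefSeq (build GRCm38.p6; 250 bases before to 50 bases after an annotated start) were searched on both strands for short motifs of factors known to act on oxidative phosphorylation genes. A window was given for 76 of the 93 genes, 2 of them under another symbol, and gave 81 windows in all. The palindromic motif of NRF1 was in 24.7% of these windows, against 4.6% of all 32851 promoter windows and 6.38% of the 21263 windows of protein-coding genes. That of GABPA, also called NRF-2 (CCGGAAG), was in 22.2%, against 8.86% and 11.6%. That of YY1 (AAGATGGC) was in 13.6%, against 2.75% and 3.05%. An estrogen-related receptor motif (TCAAGGTCA) was in 2.47%, against 0.423% and 0.334%. None of these motifs contains another, and 51.9% of the windows held at least 1 of the first 3, against 14.7% of all windows and 18.9% of those of protein-coding genes. By complex this share ran from 21.4% of 14 windows for complex IV to 100.0% of 3 windows for complex II. The median number of CpG dinucleotides per window was 20, against 7 for all windows and 13 for protein-coding genes. The 4 windows of tissue-restricted isoforms held none of the motifs and had a median of 8.5 CpG. A match is a description of the letters and shows no binding.

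The windows below are printed because they show the contrast between a ubiquitous subunit and its muscle isoform (Cox8a and Cox8b), a window rich in the NRF1 motif (Sdha), one with the YY1 motif (Ndufb8), and that of the only gene of the 93 that passed the test (Ndufa1). Motif matches are in capitals, and each window is read 5′ to 3′ on the strand of its gene, which is the minus strand in all of them. Cox8a (chr19:7217567-7217866) held the GABPA motif 2 times, on the reverse strand, and 19 CpG, and Cox8b (chr7:140900397-140900696) held no motif and 2 CpG. This contrast was not general in complex IV. The windows of Cox5a, Cox5b, Cox7a2, Cox7a2l, Cox7b, Cox7c and Ndufa4 also held none of the motifs. Cox7b had 5 CpG and its tissue-restricted relative Cox7b2 had 10. Sdha (chr13:74350191-74350490) held the NRF1 motif 3 times, beginning 98, 55 and 10 bases before the start. Ndufb8 (chr19:44555393-44555692) held the YY1 motif once, beginning at base 39 after the start. Ndufa1 (chrX:37191189-37191488) held none of the motifs, though it had 29 CpG.
Cox8a: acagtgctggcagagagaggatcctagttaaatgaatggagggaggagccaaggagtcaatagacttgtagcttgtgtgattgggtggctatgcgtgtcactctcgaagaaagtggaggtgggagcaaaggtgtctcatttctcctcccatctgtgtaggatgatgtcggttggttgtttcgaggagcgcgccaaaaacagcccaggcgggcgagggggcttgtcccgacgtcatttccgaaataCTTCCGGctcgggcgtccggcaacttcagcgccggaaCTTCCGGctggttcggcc
Cox8b: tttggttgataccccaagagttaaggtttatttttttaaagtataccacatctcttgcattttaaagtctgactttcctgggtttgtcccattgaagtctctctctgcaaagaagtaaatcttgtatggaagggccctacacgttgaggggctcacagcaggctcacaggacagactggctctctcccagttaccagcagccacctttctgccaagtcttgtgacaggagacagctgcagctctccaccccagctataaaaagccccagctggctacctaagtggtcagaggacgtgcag
Sdha: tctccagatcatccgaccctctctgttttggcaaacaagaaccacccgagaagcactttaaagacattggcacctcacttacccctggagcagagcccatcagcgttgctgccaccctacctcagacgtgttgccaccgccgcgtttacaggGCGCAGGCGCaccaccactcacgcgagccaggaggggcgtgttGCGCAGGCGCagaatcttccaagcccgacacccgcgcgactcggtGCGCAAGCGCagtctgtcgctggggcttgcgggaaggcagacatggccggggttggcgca
Ndufb8: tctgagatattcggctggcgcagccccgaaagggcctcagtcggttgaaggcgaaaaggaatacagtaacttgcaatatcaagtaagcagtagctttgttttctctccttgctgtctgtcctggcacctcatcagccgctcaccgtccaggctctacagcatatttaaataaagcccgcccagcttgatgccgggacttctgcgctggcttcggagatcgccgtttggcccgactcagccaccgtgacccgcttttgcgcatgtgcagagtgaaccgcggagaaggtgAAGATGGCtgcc
Ndufa1: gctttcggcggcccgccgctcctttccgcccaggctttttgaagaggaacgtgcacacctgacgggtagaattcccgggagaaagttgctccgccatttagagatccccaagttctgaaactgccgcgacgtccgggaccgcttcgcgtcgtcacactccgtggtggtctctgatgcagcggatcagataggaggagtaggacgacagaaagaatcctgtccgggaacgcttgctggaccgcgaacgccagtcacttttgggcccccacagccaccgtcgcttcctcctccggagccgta

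Of the 93 genes, 87 passed the filter on low counts. None rose with TGF-β1 and 1 fell, Ndufa1, or 1.15% of the 87 at an adjusted p-value threshold of 0.05. Among all 15862 genes tested, 11.7% passed in either direction, 5.00% higher and 6.69% lower (edgeR quasi-likelihood test, Benjamini-Hochberg adjustment). The sources state no pairing of the cultures, but those with the same replicate number tended to deviate alike from their group means. With the replicate number as a block 3 of the 87 were higher (Ndufab1, Atp5b and Atp5k) and 3 lower (Ndufa1, Ndufa6 and Ndufb8), or 6.90%, against a background of 34.2% (15.1% higher, 19.1% lower). Without both cultures of replicate 2, Ndufa1 was again the only one to pass, against 14.9% of all genes (6.79% higher, 8.09% lower). With library sizes alone in place of TMM, Ndufa1 and Ndufb8 were lower and none was higher, against 12.5% of all genes (3.20% higher, 9.25% lower). At an unadjusted p-value below 0.05 the count was 10 of 87, against 28.6% of all genes, and DESeq2 also called 1 gene lower and none higher, against 17.2% of all genes (7.57% higher, 9.59% lower). The 3 TGF-b1 cultures all lay above the 3 CTL cultures for 16 of the 87 and all below for 11, and the same patterns held for 17.2% and 18.0% of all tested genes.

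The differences were small as well as few. The fitted log2 fold changes of the 87 genes ran from -0.42 (Cox7a1, not called) to 0.21 (Ndufab1, not called), with a median of 0.027 beside -0.003 for all genes tested. By complex the medians were 0.043 for complex I, -0.127 for its assembly factors, -0.027 for complex II, 0.049 for complex III, 0.013 for complex IV and 0.058 for complex V. These signs depended on the scaling. With library sizes alone the median of all genes moved to -0.077, that of the 87 genes to -0.048, and those of all 6 groups were below 0 (complex I -0.032, assembly factors -0.201, complex II -0.101, complex III -0.026, complex IV -0.061 and complex V -0.017). The median size of a change, regardless of sign, was 0.075 on the log2 scale, against 0.173 for all genes.

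These genes were also measured closely. Their median standard error was 0.064 on the log2 scale, against 0.119 for all genes, at a median level of 54.3 normalised CPM, against 20.3. The 95% confidence interval of the fold change lay within 1.2-fold in either direction for 52 of the 87, within 1.5-fold for 83 and within 2-fold for 86. For all genes the same counts were 3400, 8801 and 11862 of 15862. The highest culture exceeded the lowest by a median of 1.16-fold, against 1.4-fold for all genes, and by less than 1.5-fold for 82 of the 87. The data thus leave room for differences below 1.2-fold in most of these genes.

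**Figure D1:**
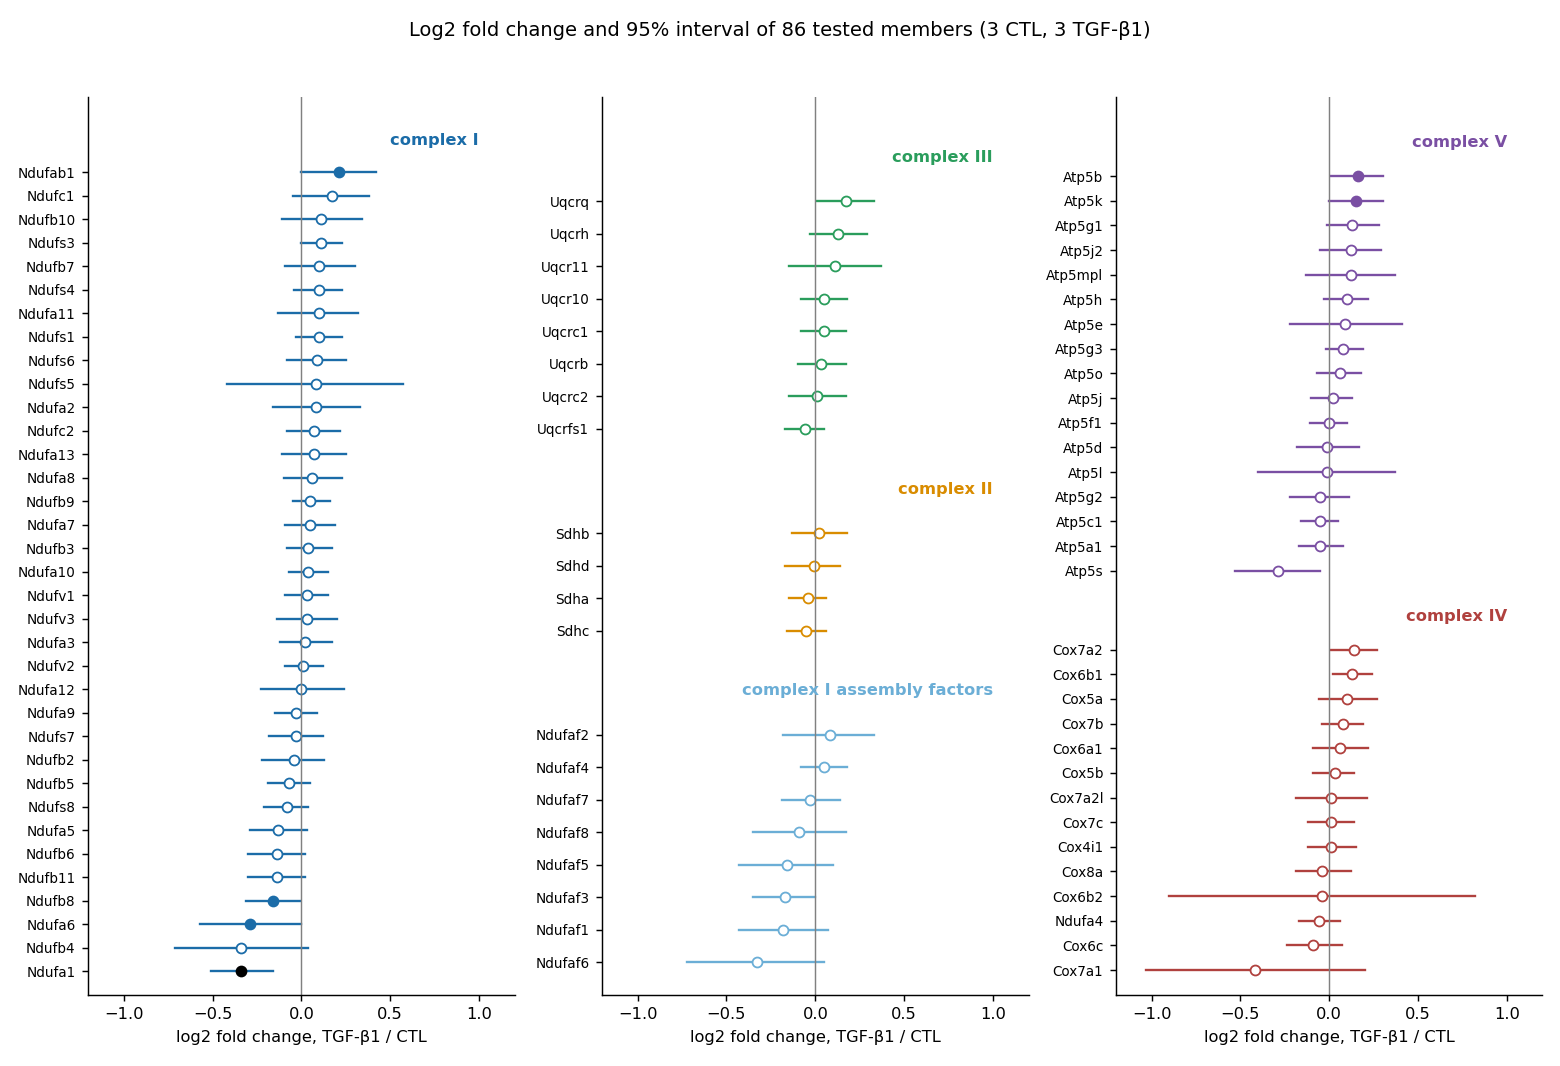
Log2 fold change (x axis, TGF-β1 over CTL) of 86 of the 87 tested genes, by complex. Points are edgeR estimates from 3 CTL and 3 TGF-b1 cultures and lines are 95% confidence intervals. The black point (Ndufa1) passed the test. Filled coloured points passed the same test only once the replicate block was added (Ndufa6, Ndufb8, Ndufab1, Atp5b and Atp5k), and open points passed neither. The interval of Cox6b2 is the widest shown (-0.90 to 0.82).

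**Figure D2:**
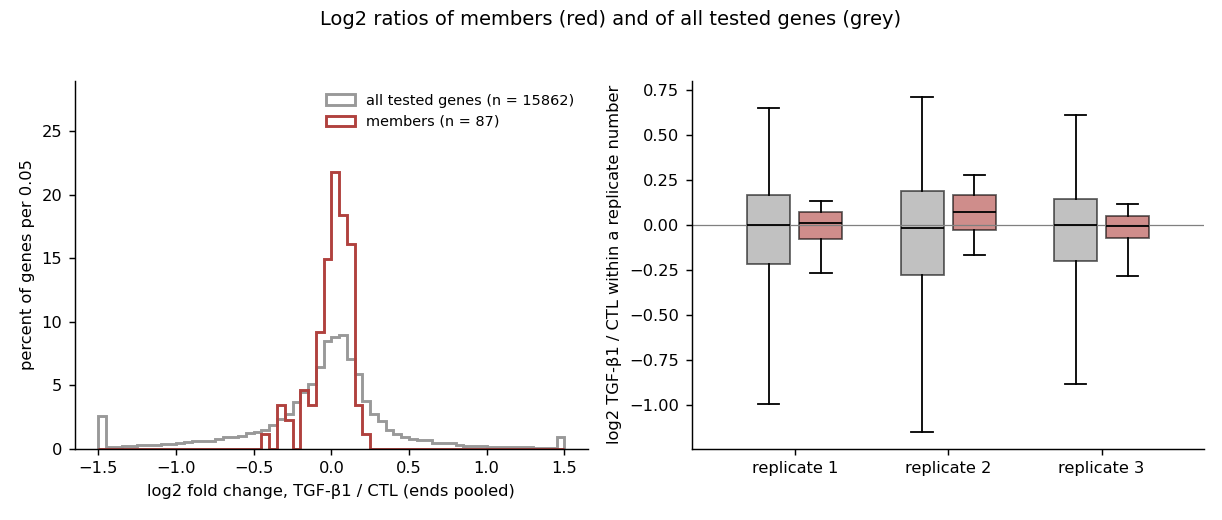
Left, the share of genes (y axis, percent per 0.05) by log2 fold change for the 87 tested genes (red) and all 15862 tested genes (grey), with values beyond 1.5 pooled at the ends. Right, log2 ratios of TGF-b1 to CTL cultures with the same replicate number, as boxes with the median and quartiles and whiskers from the 5th to the 95th percentile. The red distribution is narrower, and its median is 0.01, 0.068 and -0.009 in replicates 1, 2 and 3.

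Summed over all 93 genes, normalised CPM was 6836, 6889 and 6938 in CTL and 6905, 7341 and 6959 in TGF-b1 replicates 1, 2 and 3, or 0.674% to 0.712% of all counts. The CTL cultures lay close together and TGF-b1 replicate 2 was the highest. Complex V gave the largest sums, 2647, 2688 and 2687 in CTL and 2710, 2919 and 2760 in TGF-b1 cultures. The sums of the complex I assembly factors lay lower in every TGF-b1 culture than in any CTL culture, at 98.2, 100.2 and 100.9 in CTL and 94.5, 97.0 and 94.0 in TGF-b1 cultures. The ratio of their means was 0.954, and none of the 8 genes passed the test. In complex II the groups also did not overlap, but barely, with 502.4 in the highest TGF-b1 and 502.5 in the lowest CTL culture and a ratio of 0.981. For complexes I, III and IV the ratios were 1.01, 1.04 and 1.02. These sums are described without a test.

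**Figure D3:**
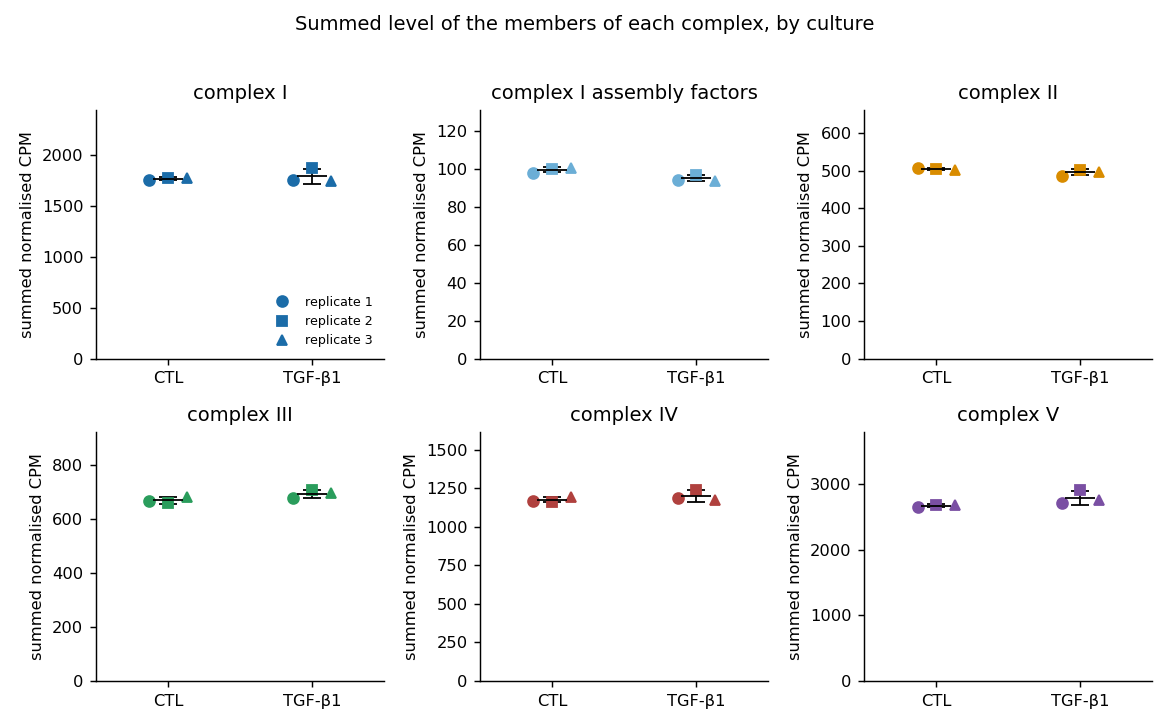
Summed normalised CPM (y axis, from 0) of all members of each complex in CTL and TGF-b1 cultures. Symbols mark replicates 1, 2 and 3, and black bars give the mean ± SD (n = 3). The ratios of TGF-b1 to CTL means run from 0.954 to 1.05, and TGF-b1 replicate 2 (square) is the highest culture for complexes I, III, IV and V.

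Ndufa1, a small accessory subunit of the membrane arm of complex I, was the gene that fell. It (ENSMUSG00000016427.7) spans 37187588 to 37191163 on the minus strand of chromosome X (GRCm38), and its exons total 419 bases. Its normalised CPM was 29.5, 28.8 and 30.6 in CTL replicates 1, 2 and 3 and 22.0, 25.4 and 23.0 in TGF-b1 replicates 1, 2 and 3. Every TGF-b1 culture was below every CTL culture. The means were 29.6 ± 0.906 and 23.5 ± 1.75 (SD, n = 3), and the fold change was 0.793 (95% confidence interval 0.703 to 0.894), or -0.34 ± 0.07 (SE) on the log2 scale, at an edgeR adjusted p-value of 0.0351. Blocking on the replicate number gave 0.00614, and without replicate 2 it was 0.016 at a log2 fold change of -0.41. The call held without TGF-b1 replicate 2 (-0.40, adjusted p = 0.029) but not without any other single culture. Leaving out CTL replicate 1, 2 or 3, or TGF-b1 replicate 1 or 3, gave adjusted p-values of 0.141, 0.0685, 0.0884, 0.132 and 0.107 at log2 fold changes of -0.35 to -0.29.

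Of the other 28 accessory subunits of complex I, none passed under TMM scaling without the block, and Ndufa6, Ndufb8 and Ndufab1 passed with it. Ndufa6 (chromosome 15, 82350140 to 82354322), which belongs to the LYR family of iron-sulfur protein partners, had 70.9, 70.2 and 93.2 normalised CPM in CTL and 65.0, 61.8 and 65.5 in TGF-b1 cultures. CTL replicate 3 was far above the rest, and the groups did not overlap. Its log2 fold change was -0.29 ± 0.12 (SE; adjusted p = 0.173) and the blocked fit gave an adjusted p of 0.027. Without CTL replicate 3 the log2 fold change was -0.14 (adjusted p = 0.173). Ndufb8 (chromosome 19, 44548572 to 44555440), a membrane-arm subunit often used as a marker of assembled complex I, had 66.5, 70.2 and 63.7 in CTL and 60.7, 62.4 and 56.0 in TGF-b1 cultures. The lowest CTL culture stood just above the highest TGF-b1 culture. The log2 fold change was -0.16 ± 0.06 (SE; adjusted p = 0.148), with adjusted p-values of 0.0231 with the block and 0.0465 with library sizes alone. Ndufab1 (chromosome 7, 122085403 to 122101886), the mitochondrial acyl carrier protein, had 22.1, 22.1 and 20.4 in CTL and 24.2, 27.6 and 23.0 in TGF-b1 cultures. TGF-b1 replicate 2 was the highest, and without it the log2 fold change was 0.13 (adjusted p = 0.322). With all cultures it was 0.21 ± 0.09 (SE; adjusted p = 0.172; 0.0364 with the block).

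The 7 nuclear-encoded core subunits of complex I, which hold the flavin and iron-sulfur clusters of the electron path, did not pass with or without the block. Ndufs3 had a log2 fold change of 0.11 (adjusted p = 0.189) and Ndufs8 one of -0.08 (adjusted p = 0.355). Ndufa10, an accessory subunit of the nucleoside kinase family, had 71.2, 71.1 and 74.7 in CTL and 72.5, 76.5 and 74.2 in TGF-b1 cultures, and these overlapped. Per kb of exon, the highest level of complex I was that of Ndufa2 (96.9 normalised CPM per kb; log2 fold change 0.08) and the lowest that of Ndufb4 (1.65; log2 fold change -0.34, standard error 0.15, adjusted p = 0.214). By the length of the principal transcript instead, added after seeing that some annotated exon unions reach several kb, Ndufa7 was highest (123) and Ndufb4 was again lowest (3.26).

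Some members share sequence with other genes. Ndufs5 averaged 2.07 normalised CPM and Ndufb4 3.17, and 21.7% and 18.3% of their 50-base transcript windows also occur in annotated transcripts of other genes. Reads that aligned to more than 1 place were not counted, so the levels of these genes are uncertain. Windows shared beyond 10% were found for 11 genes in all, among them Atp5g2 (36.7%, at 19.8 normalised CPM), Uqcrb (25.4%, at 43.9), Cox7c (22.1%, at 38.4) and Atp5h (19.9%, at 81.3). Leaving these 11 out, 76 genes were tested and Ndufa1 was still the only one called. Exons of 12 genes overlap another annotated gene over more than 10% of their length, Ndufaf2 most (65.6%), followed by Ndufb6 (39.0%) and Atp5o (35.6%). In 11 of the 12 the overlap is with a gene on the other strand, and in Ndufb9 (19.5%) on the same strand. Atp5o also overlaps another entry of the same name on its own strand, which was left out of these values. The strand setting is not known here, and without strand the reads of such a stretch cannot be told apart.

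The 8 assembly factors of complex I, which build the complex and leave it, ranged from 5.16 to 23.4 normalised CPM, with log2 fold changes of -0.33 (Ndufaf6, adjusted p = 0.232) to 0.08 (Ndufaf2, adjusted p = 0.683). Of these, 6 had negative estimates, and none passed with or without the block. Ndufaf8 had the highest level per kb of exon (10.0) and had 7.87, 8.99 and 8.95 in CTL and 7.80, 8.87 and 7.56 in TGF-b1 cultures. Ndufaf2 had the lowest (3.42), though by principal transcript it was the highest (15.0).

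Complex II, succinate dehydrogenase, is the only complex encoded wholly in the nucleus and is shared with the tricarboxylic acid cycle. None of its 4 genes differed. Sdha, the flavoprotein that oxidises succinate, had 239.7, 239.5 and 230.0 normalised CPM in CTL and 227.6, 231.3 and 230.0 in TGF-b1 cultures, with a fold change of 0.971 (95% confidence interval 0.904 to 1.04). Sdhb, the iron-sulfur subunit, had a fold change of 1.02 (0.913 to 1.13), and the membrane anchors Sdhc and Sdhd had 0.966 (0.894 to 1.04) and 0.991 (0.892 to 1.10). The intervals of all 4 lay within 1.2-fold. Per kb of exon the order was Sdhd (71.7), Sdha (56.5), Sdhb (38.4) and Sdhc (28.6), while by principal transcript Sdha (80.4) was first and Sdhc (29.3) last.

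In complex III none of the 8 genes passed with or without the block, and log2 fold changes ran from -0.06 for Uqcrfs1, the Rieske iron-sulfur protein, to 0.17 for the small subunit Uqcrq. Uqcr10 had the highest level per kb of exon (76.2), with 42.4, 45.4 and 43.5 normalised CPM in CTL and 45.0, 47.2 and 43.4 in TGF-b1 cultures. By principal transcript Uqcrh (154) was highest and Uqcrfs1 (59.1) lowest. The core protein gene Uqcrc1 had the lowest level per kb of exon (37.1; 92.8 by principal transcript), with 152.2, 148.2 and 152.0 in CTL and 153.3, 165.2 and 149.6 in TGF-b1 cultures. Its groups overlapped, and TGF-b1 replicate 2 was the highest culture for both genes.

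Complex IV, cytochrome c oxidase, has isoforms of several subunits that are confined to certain tissues, and the cultures used the broadly expressed ones. Cox4i1, the regulatory subunit found in most tissues, had 209.3, 193.1 and 217.7 normalised CPM in CTL and 209.6, 207.7 and 208.7 in TGF-b1 cultures, while Cox4i2, known from lung and from cells short of oxygen, had 1 to 4 counts per culture. Cox6a1, the highest of complex IV per kb of exon (222), had 151.0, 155.8 and 151.4 in CTL and 158.0, 172.5 and 147.8 in TGF-b1 cultures, and its muscle isoform Cox6a2 had 0 or 1 count. Cox8a had 112.4, 121.4 and 109.7 in CTL and 106.0, 118.7 and 109.8 in TGF-b1 cultures, and Cox8b, the muscle isoform whose window is printed above, had no count in any culture, which allows up to 0.0878 to 0.106 CPM by a floor of 3 counts per library. Cox8c, known from testis, was also at 0, and Cox7b2 had at most 1 count. The floor covers counting error only.

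Ndufa4 had 132.5, 127.0 and 138.0 normalised CPM in CTL and 126.1, 128.7 and 127.5 in TGF-b1 cultures, and Ndufa4l2, known to be induced by hypoxia-inducible factor, had 0 to 2 counts. Cox7a2 had 60.7, 59.7 and 59.9 in CTL and 65.6, 70.0 and 63.1 in TGF-b1 cultures. The groups did not overlap, at a log2 fold change of 0.14 ± 0.05 (SE; adjusted p = 0.141; 0.0625 with the block). Cox7a1, the isoform of heart and skeletal muscle, was the least abundant gene tested, at 0.458, 0.577 and 0.517 in CTL and 0.321, 0.360 and 0.474 in TGF-b1 cultures, or 10 to 19 counts. Its log2 fold change of -0.42 ± 0.26 (SE) did not pass (adjusted p = 0.384). Of the 6 genes of complex IV that failed the filter (Cox4i2, Cox6a2, Cox7b2, Cox8b, Cox8c and Ndufa4l2), none exceeded 4 counts in any culture. Of the 14 tested none passed with or without the block.

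Cox6b2, best known from testis, was an exception among the tissue-restricted isoforms, and it is named here after its values were seen. It had 24.6, 32.8 and 15.8 normalised CPM in CTL replicates 1, 2 and 3 and 23.5, 32.6 and 15.3 in TGF-b1 replicates 1, 2 and 3. The values followed the replicate number and not the treatment. The highest culture exceeded the lowest by 2.14-fold, the widest ratio among the 87 genes, and the biological coefficient of variation was 0.306, against a median of 0.0845 for the 87. The log2 fold change was -0.04 (95% confidence interval -0.90 to 0.82; adjusted p = 0.961). Replicate 2 of both groups, highest in the summed fibroblast markers, was also highest for Cox6b2, and the part of cell makeup in this order was not tested.

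**Figure D4:**
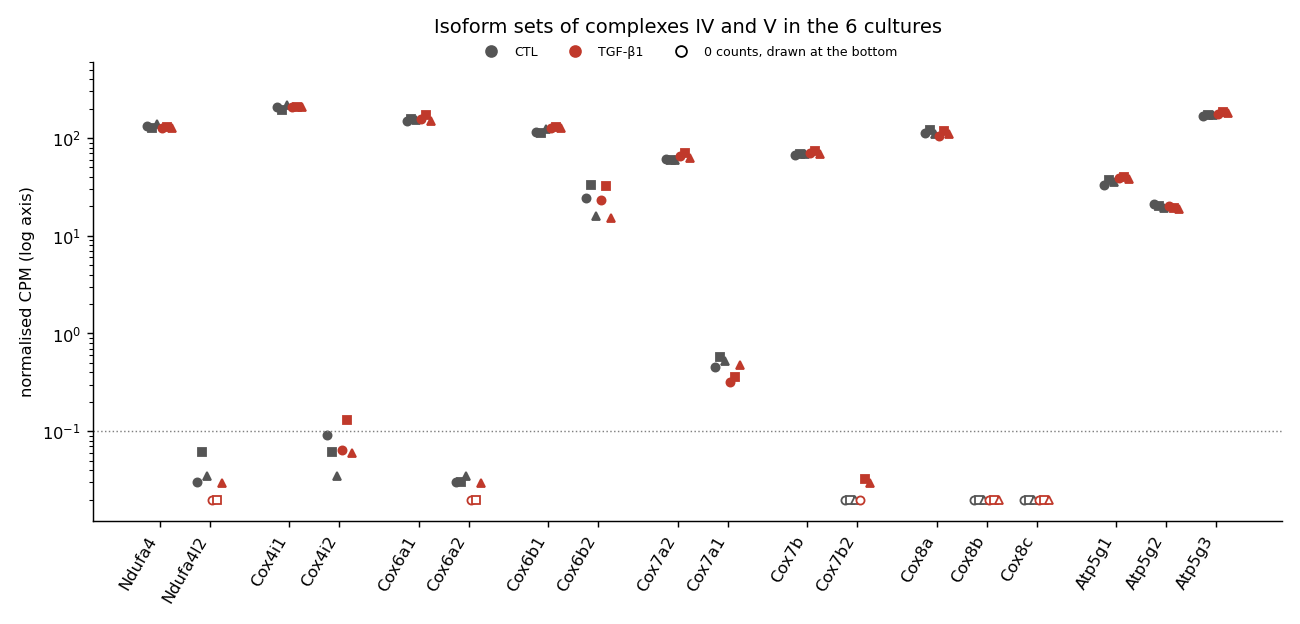
Normalised CPM (log y axis) of isoform sets in each culture, with CTL in grey, TGF-b1 in red and replicates 1, 2 and 3 as circles, squares and triangles. Open symbols at the bottom mark 0 counts and the dotted line is near the floor of 3 counts. The broadly expressed isoforms of complex IV lie between 59.7 and 217.7, Cox6b2 between 15.3 and 32.8, Cox7a1 below 1, and the other tissue-restricted isoforms near or below the floor.

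In complex V, ATP synthase, the catalytic head carried the highest levels. Atp5b (chromosome 10, 128083273 to 128090391, plus strand), the catalytic β subunit, had 936.2, 956.6 and 941.6 normalised CPM in CTL and 1029.8, 1108.8 and 1021.4 in TGF-b1 cultures, and it led all 87 genes both by counts and per kb of exon (236). The TGF-b1 cultures all lay above the CTL cultures. The log2 fold change was 0.16 ± 0.06 (SE; adjusted p = 0.151), it passed with the block (adjusted p = 0.0438), and with library sizes alone it was 0.08. Atp5a1, its partner in the head, had 616.6, 612.5 and 620.2 in CTL and 578.8, 607.1 and 606.1 in TGF-b1 cultures. Its TGF-b1 cultures all lay below, so the partners stood in opposite order. Neither passed without the block, and Atp5a1 did not pass with it either (log2 fold change -0.05, adjusted p = 0.616, and 0.493 with the block).

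Atp5k (chromosome 5, 108433244 to 108434448, minus strand), subunit e of the membrane sector, which takes part in dimers of the enzyme, had 35.5, 38.2 and 36.2 normalised CPM in CTL and 38.2, 42.8 and 40.9 in TGF-b1 cultures. The highest CTL and the lowest TGF-b1 culture almost met. The log2 fold change was 0.15 ± 0.06 (SE; adjusted p = 0.179; 0.0478 with the block). Atp5l, subunit g, had the lowest level of complex V per kb of exon (0.702), on an exon union of 6443 bases. By principal transcript it had 8.31, and Atp5s was lowest at 4.84. Atp5l had 4.09, 5.19 and 4.34 in CTL and 3.82, 5.04 and 4.66 in TGF-b1 cultures. Of its 6487 transcript windows, 566 (8.73%) also occur in transcripts of other genes, among them 19 pseudogenes. How these windows fall on its principal transcript of 544 bases was not tested. Reads with several alignments were not counted, so the level of Atp5l is uncertain as well. Atp5s, the coupling factor B gene, had the largest negative estimate of the complex, -0.29 ± 0.10 (SE; adjusted p = 0.119; 0.0529 with the block).

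The c ring, which turns as protons pass, is made of identical proteins encoded by 3 genes. Atp5g3 had 167.6, 172.0 and 171.2 normalised CPM in CTL and 175.6, 186.5 and 178.8 in TGF-b1 cultures. Atp5g1 had 33.4, 37.4 and 35.2 in CTL and 38.9, 39.5 and 38.0 in TGF-b1 cultures, and Atp5g2 had 21.3, 20.0 and 19.3 in CTL and 20.3, 19.2 and 18.9 in TGF-b1 cultures. None passed (log2 fold changes 0.08, 0.13 and -0.05; adjusted p = 0.279, 0.191 and 0.661). Per kb of exon Atp5g3 was highest (80.4), followed by Atp5g2 (11.8) and Atp5g1 (7.55), and the sequence that Atp5g2 shares with other transcripts bears on its place.

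TGF-b1 replicate 2 was the highest of the 6 cultures for 41 of the 87 genes, or 47.1%, against 24.1% of all genes tested, and the lowest for 6 (6.90%, against 25.7%). Transcript length moved with this. Among genes with a principal transcript of up to 1000 bases, the median log2 ratio of this culture to the other TGF-b1 cultures was 0.074, and among those above 4000 bases it was -0.050. Of the 87 genes, 51 fall in the first class and none in the last, and their own median was 0.094. In CTL replicate 2 the corresponding medians were 0.006 and 0.017. The part of transcript length in the position of this culture was not tested beyond these values. Leaving out this culture, the median log2 fold change of the 87 genes was -0.005 in place of 0.027.

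The mitochondrially encoded subunits did not follow the nuclear ones in that culture. The 13 genes summed to 6300, 5610 and 6000 normalised CPM in CTL and 7710, 4630 and 7400 in TGF-b1 replicates 1, 2 and 3, so TGF-b1 replicate 2, the highest for the nuclear genes, was the lowest here. Of the 7 that could be tested (mt-Nd1, mt-Nd2, mt-Nd4, mt-Nd5, mt-Nd6, mt-Cytb and mt-Co1) none passed, with or without the block, and their median log2 fold change was 0.165. Without both cultures of replicate 2, where 6.79% of all genes were higher, 4 of the 7 passed as higher, namely mt-Cytb (log2 fold change 0.53, adjusted p = 0.00986), mt-Nd6 (0.35, 0.0161), mt-Nd5 (0.35, 0.0198) and mt-Nd4 (0.37, 0.0208). That fit leaves out the culture in which their sum was lowest, and without replicate 1 in both groups no gene of any kind passed. The other 6 mitochondrially encoded genes, which include mt-Co2, mt-Co3 and mt-Atp6, stood near 0 (at most 0.207) in every culture, although cells that respire use them. They are listed at these values with no reading of expression, since reads with more than 1 alignment were not counted. Libraries made from poly(A) RNA capture mitochondrial transcripts unevenly.

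Among 42 assembly factors outside the symbol rule, 40 were tested, 1 rose and none fell, where 5.00% of all genes were higher and 6.69% lower. Tmem70, which helps build the c ring of ATP synthase, had 54.1, 52.7 and 60.3 normalised CPM in CTL and 73.2, 79.3 and 69.5 in TGF-b1 cultures, well apart, with a log2 fold change of 0.41 ± 0.08 (SE; adjusted p = 0.0233). Without replicate 2 it was 0.32 (adjusted p = 0.0354), and the call was lost without CTL replicate 1 or 2 or TGF-b1 replicate 1 or 2 (adjusted p = 0.112, 0.061, 0.0932 and 0.0536). With the block 2 were higher and 1 lower, or 7.5%, against 34.2% of all genes. The median of the list was 0.015.

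A list of 18 electron carrier genes held those for cytochrome c and for coenzyme Q with its synthesis, and also Cyc1 of complex III, Etfa, Etfb and Etfdh. Of these 18, 2 rose and none fell, against 5.00% and 6.69% of all genes. Coq3, a methyltransferase of coenzyme Q synthesis, had 13.5, 14.6 and 14.7 normalised CPM in CTL and 19.8, 19.9 and 20.1 in TGF-b1 cultures, with a log2 fold change of 0.48 ± 0.07 (SE; adjusted p = 0.0104). The groups were well apart, and without CTL replicate 1 or TGF-b1 replicate 1 the adjusted p-values were 0.0644 and 0.0572. Coq10b, a coenzyme Q binding protein, had a log2 fold change of 0.30 ± 0.06 (SE; adjusted p = 0.0333), and with library sizes alone it did not pass (0.23, adjusted p = 0.0519). With the block 2 were higher and 1 lower (16.7% of the list, against 34.2% of all genes), and the median was 0.021.

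None of the 17 genes for transcription and replication of mitochondrial DNA passed, and 1 was lower with the block (5.88%, against 34.2% of all genes). Tfam, which packages and transcribes that DNA, had 38.6, 38.5 and 38.6 normalised CPM in CTL and 34.9, 34.9 and 37.5 in TGF-b1 cultures. All TGF-b1 cultures were below the CTL cultures, at a log2 fold change of -0.11 ± 0.05 (SE; adjusted p = 0.230; 0.141 with the block).

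The regulators of mitochondrial biogenesis included the largest differences among the related lists. Of 18, none rose and 2 fell, or 11.1%, against 11.7% of all genes in both directions. Esrrg, a nuclear receptor of oxidative metabolism, had 1.49, 1.64 and 1.58 normalised CPM in CTL and 0.449, 0.327 and 0.534 in TGF-b1 cultures, a low level but with no overlap. Its log2 fold change was -1.83 ± 0.22 (SE; adjusted p = 0.00812), and without TGF-b1 replicate 1 the adjusted p-value was 0.0502. Prkaa2, a catalytic subunit of the energy sensor AMPK, had a log2 fold change of -0.53 ± 0.10 (SE; adjusted p = 0.0223). With the block 2 were higher and 4 lower, or 33.3%, close to the 34.2% of all genes.

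Ppargc1a, which encodes the coactivator PGC-1α, had 9.67, 12.4 and 5.99 normalised CPM in CTL and 2.69, 6.05 and 2.88 in TGF-b1 cultures. The lowest CTL and the highest TGF-b1 culture were nearly level, but each TGF-b1 culture was below the CTL culture of its number. The log2 fold change was -1.28 ± 0.41 (SE) at an edgeR adjusted p-value of 0.101. Ppargc1a passed under 4 of the 17 alternatives. These were the block (adjusted p = 0.000821), DESeq2, the fit without replicate 2 (-1.49, adjusted p = 0.0188) and that without TGF-b1 replicate 2 alone (-1.75, adjusted p = 0.0441). Of the genes of factors whose motifs were searched in the promoters, Esrrg fell, as given above, and its relative Esrrb passed only with the block (log2 fold change -0.92, adjusted p = 0.109; 0.0283 with the block). Nrf1, Gabpa, Yy1 and Esrra passed in neither fit. Nrf1 had a log2 fold change of 0.13 (adjusted p = 0.351), Gabpa 0.10 (0.494), Yy1 0.09 (0.177) and Esrra 0.10 (0.288). Of Gabpb1 and Gabpb2 in the same list, Gabpb1 passed only with the block (log2 fold change 0.20, adjusted p = 0.0878 without it and 0.0331 with it). Gabpb2 passed in neither fit (-0.21, adjusted p = 0.396 and 0.0998).

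**Figure D5:**
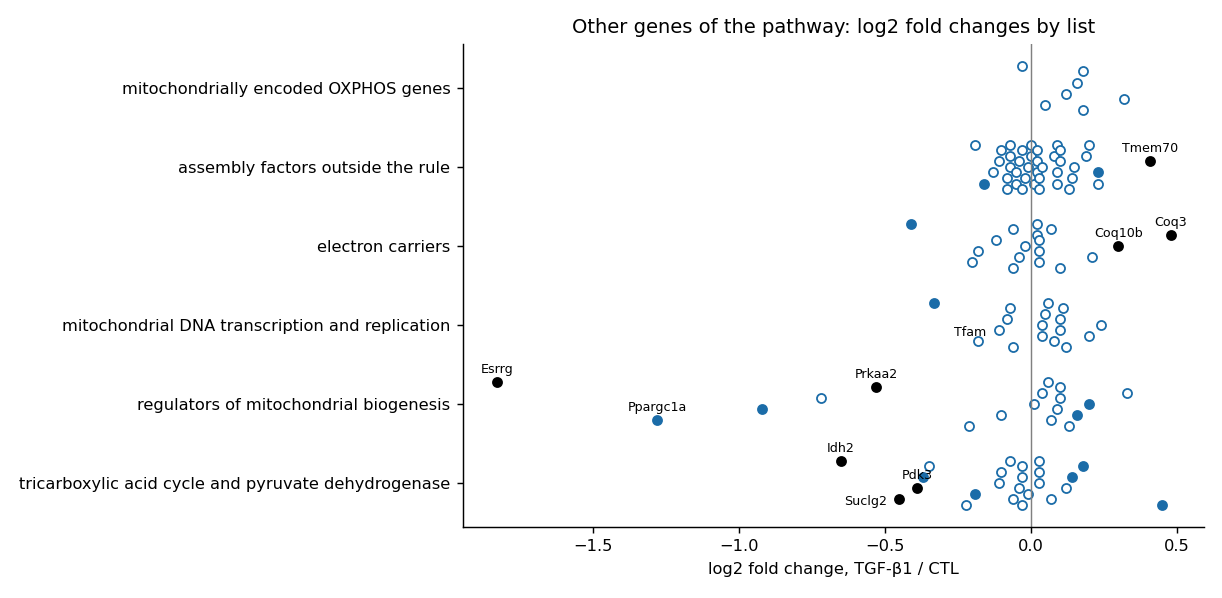
Log2 fold change (x axis, TGF-β1 over CTL) of the tested genes in 6 lists of related genes, with a vertical spread inside each list for legibility only. Black points passed the test and are named, filled blue points passed only with the replicate block, and open points passed neither. Ppargc1a and Tfam are also named. The points of most lists lie within 0.5 of 0, and Esrrg (-1.83) and Ppargc1a (-1.28) lie farthest out.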

How the data were processed

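RNA sequencing data of 3 CTL and 3 TGF-b1 cultures of mouse RTECs were analysed. The deposited values are counts of reads per gene, unnormalized. Per the labels and the submitters' processing notes, the authors trimmed single-end 50-base reads with Trim Galore, aligned them to GRCm38 with STAR 2.4.1d and counted them with HTSeq 0.6.1. The annotation release and strand setting of the counting are not given in the sources used here. Reads with several alignments (18.7% to 19.4%) and on several genes (1.88% to 1.97%) were left out by the authors' counting. Symbols, positions and lengths came from GENCODE M21, which matched 46005 of 46517 identifiers.

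Counts were analysed with edgeR 4.0.16 in R 4.3.3 (filterByExpr, TMM, glmQLFit with robust estimation, glmQLFTest, two-sided) and Benjamini-Hochberg adjustment over 15862 genes at 0.05. 3 counts, the floor used, equal 0.0878 to 0.106 CPM. No pair of libraries agreed within sampling noise. No pairing of the cultures is stated in the sources, and the block by replicate number rests on these counts. The correlation of deviations from group means was 0.34, 0.684 and 0.572 for replicates 1, 2 and 3, and -0.617 to 0.215 for cultures with unlike numbers. The 0.215 was for CTL replicate 1 with TGF-b1 replicate 3, so replicate 1 was the least clear. The fit with that number as a block is given where it changes a call. Alternatives were DESeq2 1.42.0, limma-voom (limma 3.58.1), RLE, library sizes alone, other count filters, thinning, a threshold of 0.01 and leaving out cultures. The tests were also run on simulated counts with larger known changes and no difference between replicates. Those runs cannot show how the blocked fit handles replicate differences, or how changes below 1.2-fold are recovered.

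The genes, lists and tests were chosen with earlier results of these data known. Named genes were those called, those called only with the block, the highest and lowest per kb of each complex, isoform sets, the called genes with the largest rise and fall of each list, Tfam and Ppargc1a; other genes (among them Ndufs3, Ndufs8, Ndufaf6, Uqcrfs1, Uqcrq, Cox6b2, Atp5a1, Atp5s, Coq10b, Prkaa2, Suclg2, Pdk3 and the mitochondrially encoded genes) were named after their values were seen. The values of 1 gene are not reported here. Figures were drawn with matplotlib 3.10.9.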

Additional observations from a re-analysis of the deposited data

How the results depend on the processing

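With the replicate number as a block, 3 oxidative phosphorylation genes were higher and 3 lower, and of the related lists 9 genes were higher and 12 lower, in place of 3 and 5. Among the 34 named genes the block changed the calls of Ndufa6, Ndufab1, Ndufb8, Atp5b, Atp5k and Ppargc1a and no other. With library sizes alone 2 oxidative phosphorylation genes were lower (Ndufa1 and Ndufb8), and the medians were -0.048 for the 87 genes, -0.032 for complex I, -0.201 for its assembly factors, -0.101 for complex II, -0.026 for complex III, -0.061 for complex IV and -0.017 for complex V. Ratios of summed levels were then 0.975, 0.963, 0.906, 0.932, 0.985, 0.969 and 0.993 in that order, and Sdhb (-0.05), Uqcr10 (-0.03), Uqcrc1 (-0.03), Cox6a1 (-0.01), Cox4i1 (-0.06) and Ndufa10 (-0.03) changed sign. Leaving out the largest member of each complex moved the ratio of the assembly factors to 0.930 and that of complex V to 1.01. At a threshold of 0.01, no oxidative phosphorylation gene was lower, and of the lists 0 were higher and 2 lower. Without replicate 1 in both groups 0 members were lower and the lists had 0 higher and 0 lower, as no gene of the 15961 tested passed in edgeR (1938 at an unadjusted p-value below 0.05). Without replicate 2 in both groups the lists had 7 higher and 8 lower, and Ndufa2 (-0.0016), Sdhb (-0.04), Uqcrc1 (-0.0055), Cox4i1 (-0.03) and Atp5l (0.01) changed sign. Without replicate 3 in both groups 0 members were lower, the lists had 0 higher and 1 lower, the median of the assembly factors was -0.054, and Sdhd changed sign (0.02), as Atp5l did without replicate 1 (0.02). Leaving out 1 culture at a time gave 0 to 1 members lower, 0 to 6 list genes higher and 1 to 6 lower, medians of -0.163 to -0.069 for the assembly factors and -0.01 to 0.098 for complex V, and log2 fold changes of -0.1 to 0.1 for Atp5l, -0.03 to 0.05 for Cox4i1, -0.0032 to 0.12 for Cox6a1, -0.34 to 0.23 for Cox6b2, -0.09 to 0.0065 for Cox8a, -0.0056 to 0.19 for Ndufa2, -0.05 to 0.06 for Sdhb and -0.06 to 0.04 for Sdhd. Fewer samples are part of these fits by construction, and otherwise the cause was not tested. All genes that changed sign were uncalled. Of 578 values of named genes under 17 alternatives, 522 kept their direction and call, but most of these were uncalled genes that stayed uncalled. The named genes that passed the test did so again under 10 (Ndufa1), 11 (Tmem70), 13 (Coq3), 14 (Esrrg) and 16 (Idh2) of the 17 alternatives. The depth limits Cox7a1 and the isoforms near 0 counts.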

Other observations

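The tricarboxylic acid cycle, which feeds complexes I and II, and the pyruvate dehydrogenase system were followed through 24 further genes. None rose and 3 fell, with a median log2 fold change of -0.038, beside 5.00% higher and 6.69% lower among all genes tested. Idh2, the NADP-dependent isocitrate dehydrogenase of mitochondria, had 65.1, 68.7 and 62.1 normalised CPM in CTL and 42.3, 38.0 and 44.5 in TGF-b1 cultures. Its groups were far apart, at a log2 fold change of -0.65 ± 0.07 (SE; adjusted p = 0.00698), and without replicate 2 it was -0.55 (adjusted p = 0.005). Suclg2, the GTP-specific subunit of succinyl-CoA ligase, had a log2 fold change of -0.45 (adjusted p = 0.0164), and Pdk3, a kinase that inhibits pyruvate dehydrogenase, -0.39 (adjusted p = 0.0184). With the block 3 genes of this list were higher and 5 lower, or 33.3%, close to the 34.2% of all genes.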
